A study of Mus musculus with 6 samples.

Results

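The transcription factors of resting and stem-like T cells examined here, in mouse regulatory T cells (Tregs), were Tcf7, Lef1, Satb1, Bach2, Id2, Id3, Foxo1, Foxo3, Ets1 and Myb. They were taken by gene name, and all 10 of 10 were found among the 55840 genes of the deposited table and passed the filter on low counts. Tregs hold immune responses in check, and their identity rests on FOXP3. The libraries came from Tregs of spleen and lymph nodes, 3 of genotype WT and 3 of genotype Exon2KO, a Foxp3 allele that the series title marks as delta 2. Strain, age, the sorting markers and any treatment are not given in the sources used here. Libraries are named by genotype and the number in the data column, such as WT 20.

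TCF1 (the product of Tcf7) and LEF1 are paralogous HMG box proteins that act with beta-catenin or with Groucho corepressors and are high in naive and memory T cells. BACH2 represses effector genes, among them Prdm1, and FOXO factors drive homing and survival genes such as Klf2 and Il7r when PI3K signalling is low. ID2 and ID3 bind E proteins and keep them off DNA. SATB1 organizes chromatin, ETS1 is needed for T cell homeostasis, and MYB acts in lymphocyte progenitors and in effector Treg differentiation. In Tregs several of these factors are known mainly from resting, lymphoid-tissue cells and fall as Tregs become effector cells.

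Total counts ran from 17998216 to 21003496 per library, and the level that 3 counts stand for was at most 0.169 CPM, far below every factor examined. T cell and Treg markers were abundant, with summed levels of 3442 to 3888 CPM in WT and 3167 to 3552 CPM in Exon2KO. Of these 7 markers, 3 were called lower in Exon2KO (adjusted p under 0.05) and none higher, both without and with the column number as a replicate block in the fit; over all tested genes 1.58% were called lower, and 5.79% with the block. Ctla4, an inhibitory receptor, had 131, 142 and 179 CPM in WT 2, 6 and 20 and 79.5, 81.9 and 89.7 CPM in Exon2KO (-0.85 in log2, edgeR adjusted p = 0.00677). Il2ra, the IL-2 receptor alpha chain, changed by -0.52 (edgeR adjusted p = 0.0429), and Ikzf2, the gene of HELIOS, by -0.66 (edgeR adjusted p = 0.024). In each of these 3 genes every Exon2KO library was below every WT library. Ctla4 missed the threshold without Exon2KO 2 (edgeR adjusted p = 0.0566), while Il2ra and Ikzf2 kept their calls only without Exon2KO 20 among the 6 fits that left out a library (0.065 to 0.172 and 0.0528 to 0.122 in the others). Foxp3 counts are per gene and cannot show the exon; its level of 712 ± 96.5 CPM in WT and 812 ± 121 CPM in Exon2KO (SD, n = 3 each) overlapped between the groups.

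Promoter windows are shown for the factors whose level differed most between the genotypes, so that they can be read beside the values. Each window holds 250 bases before and 50 after a transcription start in RefSeq (GRCm38.p6), read 5′ to 3′ on the gene's strand, and 9 of the 10 factors had windows, 17 in all; Ets1 was not matched. Searched on both strands were CTTTGA (TCF/LEF), GTAAACA (forkhead), CCGGAA (ETS), TGAGTCA (AP-1 type), TAACGG (MYB) and the palindrome CAGCTG (E-box), and capitals mark the matches. A gene can have several windows, and the counts do not tell which start was used.

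The second of the Tcf7 windows (chr11:52282546-52282845, minus strand) held an ETS match on the opposite strand at -24 and a forkhead match at position 2 after the start; the Lef1 window farthest downstream (chr3:131156044-131156343, plus strand) held 2 TCF/LEF matches, the Bach2 window (chr4:32417185-32417484, plus strand) a TCF/LEF and an ETS match, and a Satb1 window (chr17:51826539-51826838, minus strand) 2 E-boxes:
Tcf7: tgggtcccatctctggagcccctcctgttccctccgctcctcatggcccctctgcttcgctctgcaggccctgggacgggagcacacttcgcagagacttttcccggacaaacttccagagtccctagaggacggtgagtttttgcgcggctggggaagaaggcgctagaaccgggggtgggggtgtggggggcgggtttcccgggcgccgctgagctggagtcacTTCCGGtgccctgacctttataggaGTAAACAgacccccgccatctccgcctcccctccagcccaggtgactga
Lef1: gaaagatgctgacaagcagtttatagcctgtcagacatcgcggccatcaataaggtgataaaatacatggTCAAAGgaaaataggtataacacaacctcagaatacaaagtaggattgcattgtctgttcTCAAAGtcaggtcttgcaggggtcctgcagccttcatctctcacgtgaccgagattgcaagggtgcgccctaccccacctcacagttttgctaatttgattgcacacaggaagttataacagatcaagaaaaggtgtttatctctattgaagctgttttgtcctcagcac
Bach2: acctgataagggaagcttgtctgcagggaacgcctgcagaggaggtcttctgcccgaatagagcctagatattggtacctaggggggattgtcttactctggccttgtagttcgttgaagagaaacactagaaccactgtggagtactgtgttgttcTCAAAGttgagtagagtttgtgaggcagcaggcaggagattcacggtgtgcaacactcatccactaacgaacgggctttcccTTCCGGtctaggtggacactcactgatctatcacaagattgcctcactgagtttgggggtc
Satb1: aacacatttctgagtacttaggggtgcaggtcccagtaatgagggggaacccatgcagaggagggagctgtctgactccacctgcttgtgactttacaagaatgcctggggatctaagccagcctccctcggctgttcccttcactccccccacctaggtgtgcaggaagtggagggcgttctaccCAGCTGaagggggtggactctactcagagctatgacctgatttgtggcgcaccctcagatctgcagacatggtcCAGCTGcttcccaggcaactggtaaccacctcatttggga
All 4 windows lie inside their gene as the deposited table places it, downstream of its first base. Some other windows of these genes held no match. These were chr3:131110047-131110346 and chr3:131110073-131110372 of Lef1, and chr17:51833241-51833540 and chr17:51832598-51832897 of Satb1. The remaining ones held a match. It was an E-box in chr11:52282965-52283264 of Tcf7 and chr3:131112541-131112840 of Lef1. In chr17:51812135-51812434 and chr17:51812005-51812304 of Satb1 it was the MYB letters.

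Over all 17 windows, the TCF/LEF letters occurred in 2, against 16.0% of the 32851 promoter windows of the genome. Forkhead letters occurred in 2 (one each of Tcf7 and Myb, genome 3.65%), ETS letters in 2 (Bach2 and Tcf7, genome 14.9%) and E-boxes in 4 (Lef1, Tcf7, Id2 and Satb1, genome 16.3%). MYB letters were in 3 windows, 1 of Foxo1 and 2 overlapping ones of Satb1 (genome 2.76%), and AP-1 type letters in none (genome 5.20%). A match is a description of the letters only.

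Per length, Tcf7 and Ets1 stood far above the other factors. In WT the level in CPM per kilobase of gene length was 245 ± 14.2 for Tcf7 and 197 ± 1.07 for Ets1 (SD, n = 3 each). They were followed by Id3 (41.2 ± 8.85), Foxo1 (35.6 ± 3.72), Id2 (20.7 ± 3.96), Lef1 (16.2 ± 1.63), Satb1 (15.6 ± 0.936), Foxo3 (13.7 ± 0.194), Bach2 (10.5 ± 1.57) and Myb (5.04 ± 0.842). The ranges of neighbours in this order overlapped for Id3 and Foxo1, for Id2 and Lef1, and for Lef1 and Satb1. In Exon2KO the top 5 and Myb kept their places, with Tcf7 at 432 ± 17.6 and Ets1 at 217 ± 5.50 CPM per kilobase. Satb1 (25.6 ± 2.24) then stood before Lef1 (22.3 ± 2.91) and Bach2 (14.8 ± 2.47) beside Foxo3 (14.8 ± 0.425), and the ranges of both pairs overlapped.

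To ask which of these factors differed between the genotypes, all 14919 tested genes were fitted together. Tcf7 and Satb1 were called higher in Exon2KO at an adjusted p under 0.05 and no factor was called lower. That is 2 of 10, where 0.757% of all tested genes were called higher and 1.58% lower. The log2 fold change was positive for 9 of the 10, with a median of 0.28 against 0.01 over all tested genes. With the column number as a replicate block, Lef1, Bach2 and Id2 were called higher as well, which is 5 of 10 where 3.93% of all tested genes were called higher and 5.79% lower. The same 5 were called with the block without both libraries numbered 20 (2.58% of all tested genes higher), and DESeq2 called Tcf7, Satb1, Lef1 and Bach2 (1.38% higher). Without a filter on low counts Tcf7, Satb1 and Lef1 were called (0.728% of all tested genes higher).

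**Figure D1:**
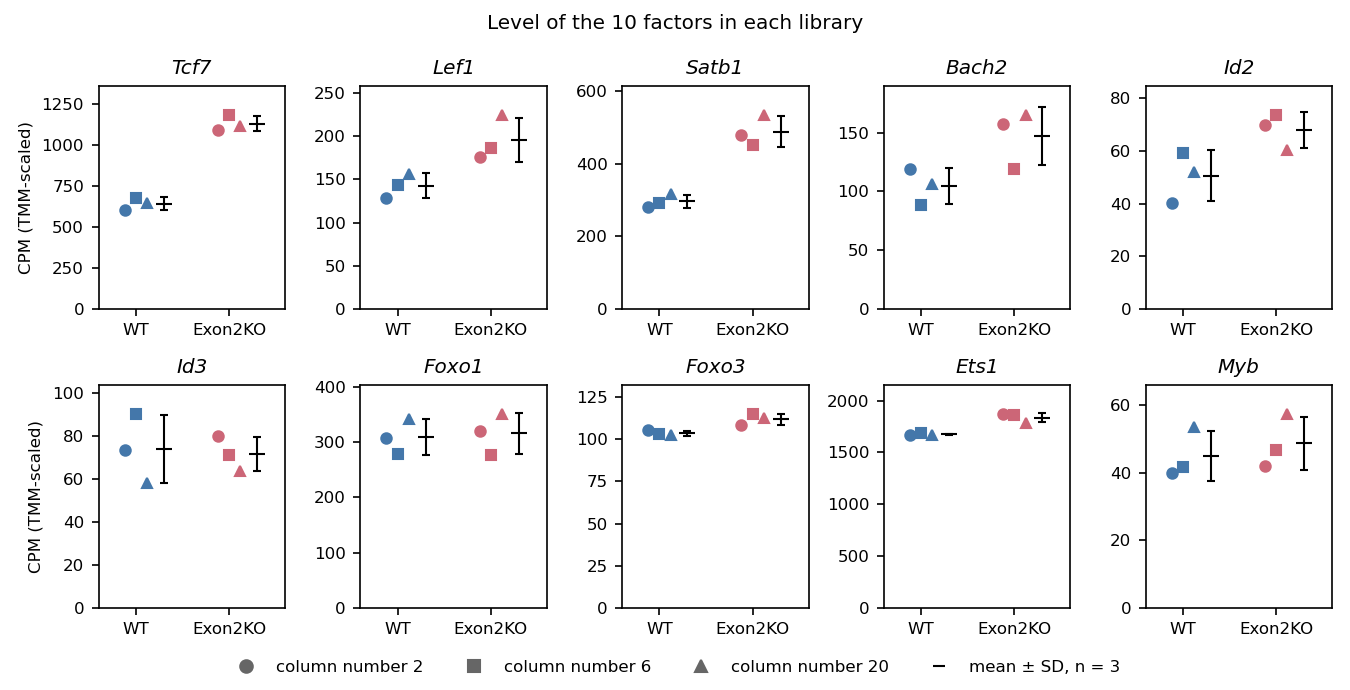
Level in CPM (vertical axis, from 0) of the 10 factors in each WT (blue) and Exon2KO (red) library, with the marker shape giving the column number and the black mark the mean ± SD of 3 libraries. Tcf7 lies between 604 and 678 CPM in WT and between 1096 and 1185 CPM in Exon2KO, while the genotypes overlap for Bach2, Id3, Foxo1 and Myb.

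The WT libraries 2, 6 and 20 held 11252, 12314 and 13804 Tcf7 counts, and the Exon2KO libraries with the same numbers held 19728, 23108 and 19885. In CPM this was 604, 678 and 648 against 1096, 1185 and 1119. Every Exon2KO library was thus well above every WT library, and the libraries of a genotype lay close together. The level rose 1.76-fold. In log2 this was 0.82 with an SE of 0.08 (edgeR adjusted p = 0.00151), the 17th smallest p of all tested genes. Within the same-numbered pairs the log2 difference was 0.86, 0.81 and 0.79. Tcf7 (ENSMUSG00000000782) lies on chromosome 11, 52252371 to 52283014, minus strand. Transcripts for long and short TCF1 share the gene's count, so the isoform that rose cannot be read from it.

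Lef1, the paralog of Tcf7, had 128, 144 and 156 CPM in WT 2, 6 and 20 and 176, 186 and 225 CPM in Exon2KO. The groups did not overlap, and library 20 was the highest in each genotype. The log2 fold change of 0.46 (SE 0.11) missed the threshold (edgeR adjusted p = 0.0754) and passed it with the block (0.45, SE 0.06, adjusted p = 0.000113). Within each library Lef1 per kilobase was lower than Tcf7, and its log2 ratio to Tcf7 was -3.98, -3.98 and -3.79 in WT against -4.38, -4.41 and -4.06 in Exon2KO. The ratio was lower in every Exon2KO library, by 0.36 on average (-0.36; two-sided exact permutation p = 0.1, the smallest 3 against 3 can give, 0.167 adjusted over 5 ratios).

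Satb1, which encodes the chromatin organizer, had 281, 292 and 316 CPM in WT 2, 6 and 20 and 478, 450 and 534 CPM in Exon2KO. No WT library reached the lowest Exon2KO library. The level rose 1.64-fold. In log2 this was 0.72 with an SE of 0.09 (edgeR adjusted p = 0.00415), the 48th smallest p. Satb1 (ENSMUSG00000023927; chromosome 17, 51736187 to 51833290, minus strand) contains 6 other annotated genes whose counts came to 3.32% of its own, the largest share among the 10 factors; for Tcf7 it was 1.29%. In the fits that left out 1 library each, Tcf7 and Satb1 kept their calls in 6 of 6, with log2 fold changes of 0.77 to 0.86 and 0.64 to 0.77.

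Bach2, the repressor of effector genes, had 119, 88.2 and 106 CPM in WT 2, 6 and 20 and 157, 119 and 165 CPM in Exon2KO. The groups overlapped narrowly, as WT 2 was at 119.4 CPM and Exon2KO 6 at 119.3 CPM. The libraries numbered 6 were the lowest of their genotype, and within the same-numbered pairs Exon2KO was higher by 0.40, 0.44 and 0.64 on the log2 scale. The log2 fold change was 0.49 (SE 0.15, edgeR adjusted p = 0.18) without the block and 0.49 (SE 0.06, adjusted p = 0.000107) with it. The authors' deposited table gives Bach2 an adjusted p of 0.0199 at 0.50 in log2, and Lef1 one of 0.00737.

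The balance of Bach2 to its target Prdm1, the gene of the effector factor BLIMP1, was compared within libraries. The log2 ratio of their levels per kilobase was 0.80, -0.00066 and 0.20 in WT 2, 6 and 20 and 2.20, 1.11 and 2.89 in Exon2KO. Each Exon2KO library was above each WT library, with a mean difference of 1.73 (exact permutation p = 0.1, 0.167 adjusted over 5 ratios). Prdm1 itself went from 46.6 ± 7.19 to 20.95 ± 9.41 CPM (SD, n = 3 each); its log2 fold change of -1.15 was not called without the block (edgeR adjusted p = 0.206) or with it (adjusted p = 0.255). It was called without Exon2KO 6 (-1.56, edgeR adjusted p = 0.0174) and with the block without both libraries numbered 20 (-0.82, edgeR adjusted p = 0.000494).

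The pair of ID genes gave different values. Id2 had 40.2, 59.3 and 52.2 CPM in WT 2, 6 and 20 and 70.0, 73.7 and 60.2 CPM in Exon2KO, so that the highest WT library lay just under the lowest Exon2KO library. Its log2 fold change was 0.43 (SE 0.14, edgeR adjusted p = 0.221), and 0.44 (SE 0.11, adjusted p = 0.0312) with the block. Id2 is known as the member that rises in effector cells, and Id3 as the one kept in resting and follicular T cells. Id3 had 73.5, 89.9 and 58.2 CPM in WT and 79.7, 71.1 and 63.7 CPM in Exon2KO, and the Exon2KO libraries lay within the WT range. Its log2 fold change was -0.05 (SE 0.16, edgeR adjusted p = 0.96). The log2 ratio of Id2 to Id3 was -1.32, -1.05 and -0.60 in WT and -0.63, -0.39 and -0.53 in Exon2KO. The groups overlapped, with a mean difference of 0.47 (exact permutation p = 0.2, 0.25 adjusted over 5 ratios). Within the same-numbered pairs it was 0.68, 0.65 and 0.08 (exact sign-flip permutation p = 0.25, the smallest 3 pairs can give), and without WT 2 the mean difference was 0.31.

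Tcf7 and Id2 were set against each other because they mark the resting and the effector side. The log2 ratio of Tcf7 to Id2 was 3.80, 3.41 and 3.53 in WT 2, 6 and 20 and 3.86, 3.90 and 4.11 in Exon2KO. It was higher in every Exon2KO library, by 0.38 on average (exact permutation p = 0.1, 0.167 adjusted over 5 ratios). In the pair numbered 2 the difference was 0.06.

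Neither FOXO gene was called. Foxo1, the main FOXO factor of T cells, had 307, 278 and 342 CPM in WT 2, 6 and 20 and 320, 276 and 350 CPM in Exon2KO. Its values followed the column number in both genotypes, lowest in 6 and highest in 20. The log2 fold change was 0.03 (SE 0.11, edgeR adjusted p = 0.96). Foxo3 had 105, 103 and 103 CPM in WT and 108, 115 and 112 CPM in Exon2KO, which did not overlap but lay close together. Its log2 fold change was 0.11 (SE 0.07, edgeR adjusted p = 0.627). The log2 ratio of Foxo1 to Foxo3 differed by -0.08 between the genotypes (exact permutation p = 0.7). FOXO proteins are controlled mainly by phosphorylation and export from the nucleus, which RNA levels do not measure.

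Ets1, the most counted of the 10 genes, had 1666, 1683 and 1669 CPM in WT 2, 6 and 20 and 1867, 1858 and 1782 CPM in Exon2KO. The groups did not overlap, and the WT libraries differed from each other by a coefficient of variation of only 0.541%. Its log2 fold change was 0.13 (SE 0.07, edgeR adjusted p = 0.553). Myb had 39.8, 41.6 and 53.7 CPM in WT and 42.1, 46.9 and 57.4 CPM in Exon2KO. These ranges overlapped, and the log2 fold change was 0.11 (SE 0.15, edgeR adjusted p = 0.87). Non-overlap of the groups, with Exon2KO higher, was seen for 6 of the 10 factors and for 8.35% of all tested genes.

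**Figure D2:**
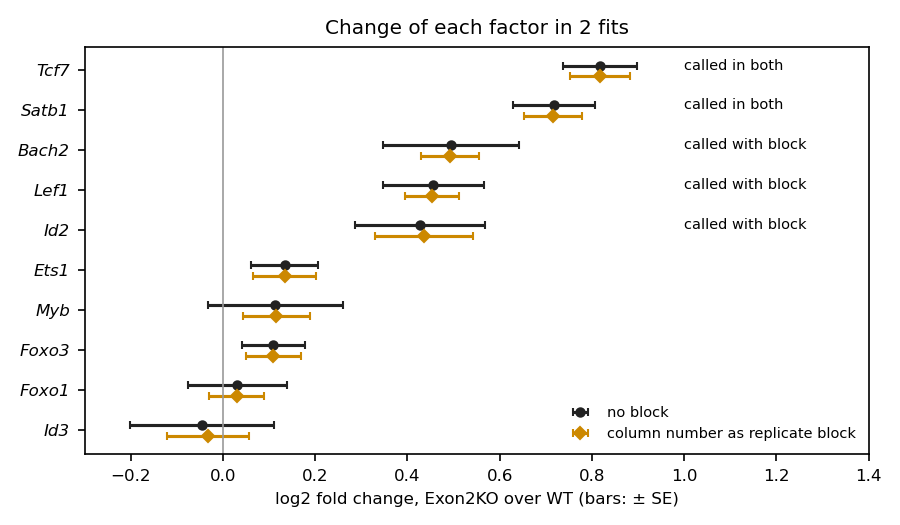
Log2 fold change of each factor, Exon2KO over WT (horizontal axis), with bars of ± SE, in the edgeR fit without a block (black circles) and with the column number as a replicate block (orange diamonds). The values of both fits nearly coincide, the bars are shorter with the block, and of these 2 fits only that one called Lef1, Bach2 and Id2.

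The factors also differed between the column numbers. In the fit with the block, 4 of 10 (Lef1, Bach2, Foxo1 and Myb) were called for a difference between the numbers 2, 6 and 20, where 10.4% of all tested genes were (edgeR adjusted p = 0.0224, 0.00413, 0.0258 and 0.00945). This test was added after seeing the data, and what the numbers stand for is not given in the sources used here. Deviations from the mean of the own genotype show the pattern on the log2 CPM scale. Myb was high in both libraries numbered 20, by 0.26 in WT and 0.25 in Exon2KO, and Lef1 by 0.14 and 0.21. Bach2 was low in both libraries numbered 6, by -0.23 and -0.29, and Foxo1 by -0.15 and -0.18. Tcf7 deviated by at most 0.09 in size in any library and was not called between numbers (adjusted p = 0.476). Without both libraries numbered 20, Tcf7 and Satb1 were still the called factors, at 0.83 (adjusted p = 0.00266) and 0.69 (adjusted p = 0.0033), where 0.931% of all tested genes were called higher.

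**Figure D3:**
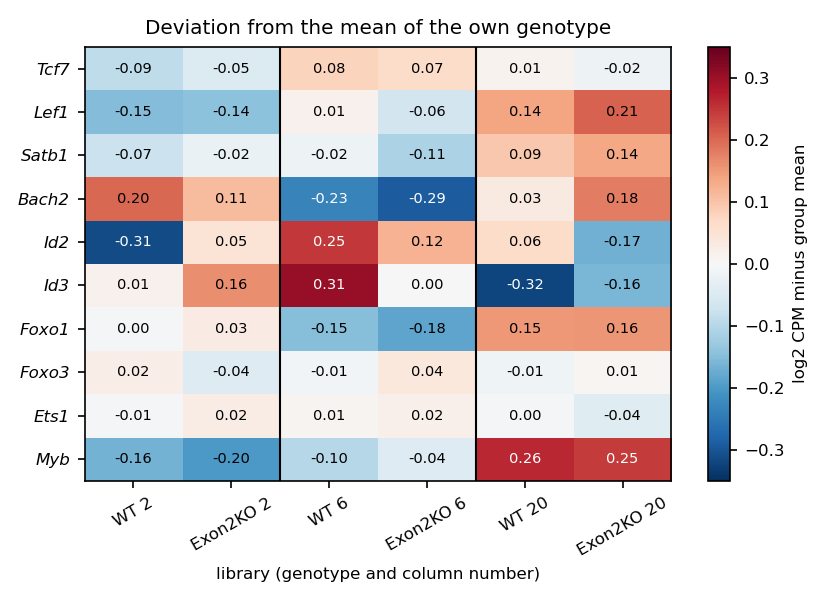
Deviation of each factor in each library from the mean of its own genotype, in log2 CPM (red above, blue below), with libraries ordered by column number. Myb and Lef1 are above the mean in both libraries numbered 20, Bach2 and Foxo1 below it in both numbered 6, and Ets1 and Foxo3 stay close to 0 throughout.

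The list of relatives held 21 genes: other TCF, SATB, BACH, ID, E protein, FOXO, FOXP1, ETS and MYB genes. Over all tested genes 0.757% were called higher and 1.58% lower, and 3.93% and 5.79% with the block; these shares apply to the counts of this list and of each list after it. Of the 18 tested relatives none was called by edgeR or limma-voom and 1 by DESeq2, and 3 had an unadjusted p under 0.05 in edgeR; 11 log2 fold changes were positive and 7 negative, with a median of 0.08. With the block, Foxp1, a forkhead factor of T cell quiescence (0.29, adjusted p = 0.00456), and Ets2 (0.40, adjusted p = 0.00243) were called higher. The E protein genes Tcf3 and Tcf12, whose products ID2 and ID3 bind, had log2 fold changes of 0.13 (adjusted p = 0.618) and 0.15 (adjusted p = 0.549).

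None of the 14 tested beta-catenin and Groucho partner genes was called by edgeR, DESeq2 or limma-voom, where 0.757% of all tested genes were called higher by edgeR and 1.58% lower; 3 had an unadjusted p under 0.05 in edgeR, and the median was 0.14. Ctnnb1, the beta-catenin gene, had 184 ± 12.9 CPM in WT and 182 ± 12.2 CPM in Exon2KO (SD, n = 3 each), and Axin2, a common readout of beta-catenin signalling, 66.0 ± 3.60 and 65.8 ± 13.6 CPM. With the block, Tle3, a Groucho corepressor (0.24, adjusted p = 0.0209), and Bcl9l, a beta-catenin coactivator (0.25, adjusted p = 0.0257), were called higher. Both calls were lost with the block without both libraries numbered 20 (edgeR adjusted p = 0.0954 for Tle3 and 0.112 for Bcl9l).

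Among 15 tested FOXO target genes, 2 were called higher and 1 lower, with a median of 0.23 (0.15 with the block). Klf2, which drives homing and egress receptors, had 295, 328 and 261 CPM in WT 2, 6 and 20 and 424, 423 and 441 CPM in Exon2KO. Every Exon2KO library was above every WT library, and the log2 fold change was 0.54 (SE 0.09, edgeR adjusted p = 0.0175). S1pr1, the egress receptor, rose by 0.61 (SE 0.10, edgeR adjusted p = 0.0159) and Gabarapl1, an autophagy gene, changed by -0.86 (SE 0.14, edgeR adjusted p = 0.0153). Leaving out single libraries ended these calls in part: all 3 genes missed the threshold without WT 2 (edgeR adjusted p = 0.0903, 0.0913 and 0.0703 for Klf2, S1pr1 and Gabarapl1) and without Exon2KO 2 (0.0961, 0.0827 and 0.0961). Klf2 also missed it without Exon2KO 6 (0.0532), and S1pr1 and Gabarapl1 without WT 6 (0.0616 and 0.0675). With the block, 7 were called higher and 3 lower. Il7r, a gene on which FOXO1 acts directly, was among the lower ones with the block (-0.43, adjusted p = 0.00709), while without it the value was -0.34 (adjusted p = 0.941). Leaving out single libraries moved Il7r from -0.83 without Exon2KO 6 to 0.07 without Exon2KO 20, and it was also positive without WT 6 (0.04).

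Genes that BACH2 represses were lower where they were called. Their list, like the others, was chosen with earlier results of these data known. Of 11 tested, 3 were called lower and none higher, and the median was -0.50. They were Klrg1, a receptor of terminally differentiated cells (-3.43, SE 0.26, edgeR adjusted p = 0.00085), Il1rl1, the IL-33 receptor (-2.76, SE 0.28, edgeR adjusted p = 0.00638), and Gata3, the factor of type 2 helper cells and tissue Tregs (-0.48, SE 0.10, edgeR adjusted p = 0.0437). Gata3 kept its call only without Exon2KO 20 among the 6 fits that left out a library; in the others the edgeR adjusted p was 0.0851 to 0.199. Klrg1 had 24.1, 21.3 and 39.1 CPM in WT 2, 6 and 20 and 2.28, 2.77 and 2.76 CPM in Exon2KO, so the groups lay far apart. With the block, 4 BACH2-repressed genes were called lower and none higher.

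Effector transcription factors were called lower for Gata3 and Batf, 2 of 15 tested, and none was called higher; the median was -0.47, and -0.26 without both libraries numbered 20. Batf, an AP-1 factor of effector Tregs, changed by -0.58 (SE 0.12, edgeR adjusted p = 0.0459). Batf kept its call only without Exon2KO 6 among those 6 fits, with an edgeR adjusted p of 0.0791 to 0.199 in the others. With the block 7 were called lower. Gata3 stands in this list and in that of the BACH2-repressed genes, so the counts of these lists are not separate.

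Other genes of resting and stem-like T cells included 3 called higher of 15 tested, none called lower, with a median of 0.35. Besides Klf2 and S1pr1 this was Actn1, an actin crosslinker of naive T cells, with 199, 179 and 179 CPM in WT 2, 6 and 20 and 315, 284 and 325 CPM in Exon2KO. No WT library came near the Exon2KO range, and the log2 fold change was 0.73 (SE 0.08, edgeR adjusted p = 0.00274). With the block 10 were called higher and 1, Il7r, lower. Klf2, S1pr1, Ccr7 and Il7r are among the genes that stand in this list and in the FOXO list, so the counts of the lists are not separate.

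**Figure D4:**
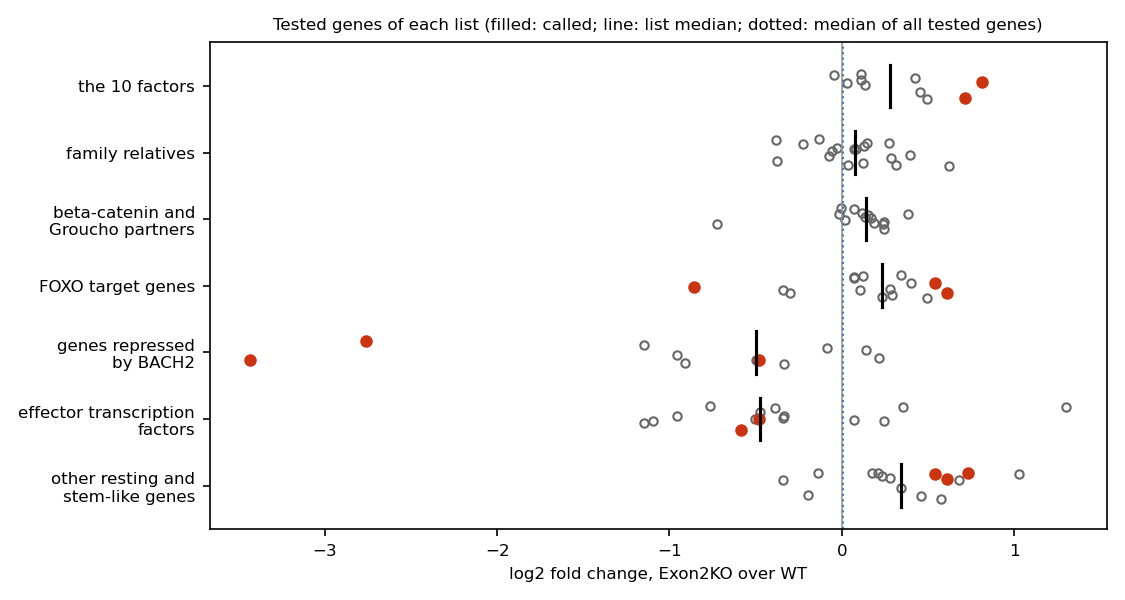
Log2 fold change of every tested gene of the 7 lists, Exon2KO over WT (horizontal axis); filled points were called, black bars are list medians and the dotted line is the median of all tested genes. The medians of the resting lists lie above 0 and those of the BACH2-repressed and effector lists at -0.50 and -0.47.

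No marker of other cells was called in the edgeR fit of all 6 libraries with the count filter and no block, at 6 tested genes for B cells, 6 for CD8 T and NK cells, 6 for myeloid cells, 3 for erythroid cells and platelets and 3 for stromal and endothelial cells. With the block Cd79b of B cells (-0.51, edgeR adjusted p = 0.00501) and Lyz2 of myeloid cells (-0.40, edgeR adjusted p = 0.0413) were called lower and Pecam1, which T cells also express, higher (0.23, edgeR adjusted p = 0.0164). Cd79b was also called lower without a filter on low counts (edgeR adjusted p = 0.0446), with DESeq2 (adjusted p = 0.0338) and with the block without both libraries numbered 20 (edgeR adjusted p = 0.0306), where Lyz2 (0.126) and Pecam1 (0.0824) missed the threshold. The B cell marker sum was 38.6 to 44.7 CPM in WT and 31.6 to 34.3 CPM in Exon2KO, without overlap. The sums in WT and Exon2KO were 23.8 to 26.1 and 25.7 to 37.3 CPM for CD8 T and NK cells, 19.3 to 49.6 and 16.3 to 38.8 CPM for myeloid cells, and 4.46 to 15.5 and 3.21 to 11.0 CPM for erythroid cells and platelets. The stromal and endothelial sum, 165 to 191 CPM in WT and 189 to 225 CPM in Exon2KO, was almost all Pecam1. Thymocyte markers summed to at most 0.731 CPM, with Rag2 and Ptcra at 0 in every library. Median log2 fold changes were 0.06 for B cells, -0.05 for CD8 T and NK cells, -0.31 for myeloid cells, -0.39 for erythroid cells and platelets and -1.20 for stromal and endothelial cells, where Col1a1 and Col1a2 stayed at or below 2.96 CPM. The part of these cells in the results was not tested. Resting conventional CD4 T cells also express the factors and have no marker in the lists, and their part was not tested. In bulk RNA, more cells of a resting type and more RNA per cell cannot be told apart.

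The tested protein-coding genes whose log2 CPM followed Tcf7 most closely over the 6 libraries were Daw1, Usp7 and Tgfbr2, with Pearson r of 0.996, 0.993 and 0.992 as a description. The points share the 2 genotypes, so any gene that separates them can score high. Tgfbr2, the TGF-beta receptor chain, was called higher (0.47, edgeR adjusted p = 0.0125). Daw1 was also called (3.22, edgeR adjusted p = 0.00235) at a low level, and Usp7 was not (0.15, edgeR adjusted p = 0.396).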

How the data were processed

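Gene counts came from 6 bulk RNA-seq libraries of regulatory T cells, 3 WT and 3 Exon2KO. The deposited counts are per gene, whole and not normalized, per the file headers. The authors also deposited gene lengths and a comparison: a mean scaled count signal per genotype, its log2 ratio, and the p-value before and after adjustment. The other 6 per-sample columns of the table were not used. The submitters' processing notes name HISAT2 2.0.5, StringTie 1.3.3b, featureCounts 1.5.0-p3, DESeq2 1.16.1 and the build mm10, with no roles. The strand setting is not given in the sources used here. Column names carry the genotype and a number (2, 6 or 20) that no sample title carries, so libraries are named by genotype and column number. GENCODE mouse release 21 (GRCm38) holds 55394 of the 55840 deposited identifiers, 55218 at an identical position, so positions are GRCm38.

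Exon2KO was tested against WT with edgeR 4.0.16 in R 4.3.3 (quasi-likelihood, TMM, filterByExpr, robust, two-sided). The 14919 tested genes were adjusted together (Benjamini-Hochberg), and called means an adjusted p below 0.05. SEs were computed as the size of the log2 change over the square root of F. CPM were taken on TMM-scaled library sizes, and divided by the deposited gene length in kilobases to compare levels between genes. The ratios of these levels within a library were tested with a two-sided exact permutation test over the 6 libraries, adjusted over 5 ratios.

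Same-numbered libraries deviated from their group means together, with correlations across 14919 genes of 0.27, 0.37 and 0.49 for the numbers 2, 6 and 20. Libraries of unlike number and genotype gave -0.37 to 0.05. Deviations from a mean of 3 libraries are tied to each other, so these correlations are not independent. The numbers were therefore treated as pairing the libraries, on the same data that the block then fitted. Apart from the column names, no label gives a pairing. A fit with the number as a replicate block was run beside the main one. Other settings were no filter on low counts, a filter of 10 counts in each of the libraries, RLE and upper-quartile scaling, DESeq2 1.42.0, limma-voom (limma 3.58.1), edgeR without robust estimation, leaving out each library, and leaving out both libraries numbered 20. The block without the libraries numbered 20 and the test between column numbers were added after seeing the data.

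The factors, gene lists and ratios were chosen with earlier results of these data known. Named from each list were the called genes with the 4 largest changes and at least 1 CPM in a group, plus genes a sentence turns on. No pair of same-genotype libraries agreed within sampling noise (chi-square per degree of freedom 8.12 to 23.6), so all were counted. Nothing in the labels says whether replicates are separate animals beyond the title's word for biological replicate, so p-values measure the spread between these libraries. Single values of some list genes are not reported here.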

Additional observations from a re-analysis of the deposited data

How the results depend on the processing

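Tcf7 and Satb1 were called higher in all 16 other settings, with log2 fold changes of 0.77 to 0.86 and 0.64 to 0.77. The count of 2 called factors became 3 without a count filter, 4 with DESeq2 and 5 with the replicate block, with or without the libraries numbered 20; it was 2 in the other settings, and no factor was called lower in any. Lef1 (0.46) passed the threshold without a count filter (0.45), with DESeq2 (0.46), with the block (0.45) and with the block without the libraries numbered 20 (0.42), over an adjusted p of 0.000113 to 0.259. Bach2 passed it with DESeq2 (0.50), the block (0.49) and the block without those libraries (0.42), over 0.000107 to 0.492, and Id2 with the block (0.44) and the block without those libraries (0.55), over 0.00704 to 0.577. The block changed no other factor's call. Over the fits that left out 1 library, Lef1 ran from 0.34 to 0.53, Bach2 from 0.39 to 0.62 and Id2 from 0.28 to 0.56, none called. Id3 ran from -0.19 to 0.12 and turned positive without WT 6 (0.12) and Exon2KO 20 (0.026). Foxo1 ran from -0.054 to 0.11 and turned negative without WT 6 (-0.037) and Exon2KO 20 (-0.054), and Myb ran from -0.023 to 0.26, turning negative without Exon2KO 20 (-0.023). The difference in the ratio of Foxo1 to Foxo3 ran from -0.15 to 0.032, turning positive without WT 20 (0.0047) and Exon2KO 6 (0.032). For the other ratios the direction held, and the smallest p that pairs can give with the block is 0.25.

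The 348 called genes (113 higher, 235 lower) became 617 (195, 422) without a count filter, 643 (219, 424) with DESeq2, 1450 (586, 864) with the block and 900 (385, 515) with the block without the libraries numbered 20. Leaving out 1 library gave 86 to 314 (22 to 115 higher, 64 to 199 lower). In the lists, DESeq2 called 1 relative higher, 5 BACH2-repressed genes lower, 1 effector factor higher and 5 lower, and 5 other resting genes higher. With the block these were 2 relatives and 2 beta-catenin or Groucho partners higher, 7 FOXO targets higher and 3 lower, 1 effector factor higher and 7 lower, and 10 other resting genes higher and 1 lower. With the block but without the libraries numbered 20 they were 2 relatives and 0 partners higher, 4 FOXO targets higher and 3 lower, 6 BACH2-repressed genes lower, 1 effector factor higher and 6 lower, and 7 other resting genes higher and 1 lower. Without those libraries and without a block, 1 effector factor and 5 other resting genes were higher. Effector factors called lower were 4 without a count filter and 0 with limma-voom and without robust estimation. At a single library left out, FOXO targets ran from 0 to 3 higher and 0 to 1 lower, effector factors from 0 to 1 higher and 0 to 2 lower, and other resting genes from 1 to 3 higher. Residual variation was smaller with the block (common coefficient of variation 8.56% against 17.3%); for the other settings the cause was not tested. The median log2 fold change over all genes was 0.0084, and 0.0095 with RLE and -0.0068 with upper-quartile scaling, a move of under 0.1. The ratios were not rerun on CPM without length, since a gene's length is the same in every library. Ets1 and Foxo3, whose groups did not overlap, were not called in any setting.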
